A study of Homo sapiens with 6 samples.

Results

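Classical cadherins are the calcium-dependent receptors through which neighbouring cells hold each other at adherens junctions, and catenins are the proteins that bind their cytoplasmic tails. The 9 genes described here were taken by symbol from the gene table: 6 cadherins (CDH1, CDH2, CDH3, CDH4, CDH6 and CDH11) and 3 catenins (CTNNA1, CTNNB1 and CTNND1), out of 58735 gene rows in all. The rule used symbols and no measured value, although CDH1 and CDH2 are genes that the study itself singled out in these libraries. The RNA came from PANC-1, an established line of human pancreatic duct carcinoma cells, in its wild-type form, and was sequenced as 6 libraries. In 3 of them (CM-MLKL) the cells had received conditioned medium (CM) from PANC-1 cells carrying an MLKL overexpression construct that were co-cultured with macrophages. In the other 3 (CM-Vector) the medium came from the same co-culture with empty-vector PANC-1 cells. MLKL is the protein that ruptures the plasma membrane in necroptosis, and the sequenced cells carried neither construct. The macrophages were derived from THP-1 cells, a human monocytic leukaemia line. The study's methods give 72 h as the time of the direct co-culture, and 72 h is also the time in the series' description. All groups therefore share macrophage-conditioned medium, and cells without any conditioned medium were not analysed here. The comparison asks how the recipient cancer cells' transcripts differed between the 2 media.

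In an adherens junction the outer domains of cadherins on adjacent cells pair with each other. Inside the cell, β-catenin (CTNNB1) binds the end of the cadherin tail and carries α-catenin (CTNNA1), which connects to actin, while p120-catenin (CTNND1) binds closer to the membrane and slows removal of the cadherin from the surface. β-catenin that is not held at the membrane is normally degraded, and when it escapes degradation it acts with TCF/LEF proteins in transcription. E-cadherin (CDH1) is the main cadherin of most epithelia, P-cadherin (CDH3) is found in basal epithelial layers and in several carcinomas, and N-cadherin (CDH2) is typical of neural and mesenchymal cells. A relative gain of CDH2 over CDH1 is a commonly used sign of epithelial-mesenchymal transition. PANC-1 is known as a poorly differentiated line.

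Of the 9 genes, 4 had an upstream window in the RefSeq table for GRCh38.p14 (CDH2, CDH4, CTNNA1 and CTNNB1), and CDH1, CDH3, CDH6, CDH11 and CTNND1 had no entry. The 250 bases before each of the listed CDH2 starts are shown because CDH2 had the smallest p-value among these genes, and because counts per gene add up transcripts from both starts. Both are on the minus strand of chromosome 18, and capitals mark a CCAAT box (CCAAT or its complement ATTGG).
CDH2, chr18:28177131-28177380: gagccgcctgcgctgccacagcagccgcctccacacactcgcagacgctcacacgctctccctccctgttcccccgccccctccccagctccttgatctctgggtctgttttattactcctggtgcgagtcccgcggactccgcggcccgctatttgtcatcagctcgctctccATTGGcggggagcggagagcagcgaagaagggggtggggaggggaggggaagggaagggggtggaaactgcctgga
CDH2, chr18:28036642-28036891: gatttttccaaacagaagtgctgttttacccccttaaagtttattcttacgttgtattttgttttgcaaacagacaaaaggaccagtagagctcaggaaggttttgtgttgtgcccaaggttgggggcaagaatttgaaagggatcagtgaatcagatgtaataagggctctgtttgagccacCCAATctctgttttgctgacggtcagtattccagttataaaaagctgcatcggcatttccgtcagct
The searched motifs were that box, the E-box CACCTG or CAGGTG bound by SNAIL and ZEB proteins, and the TCF/LEF core CTTTGA or TCAAAG, on both strands. Neither CDH2 window held the E-box or the TCF/LEF core. Among 35116 RefSeq windows of this length, 32.0% held the CCAAT letters, 17.5% the E-box and 11.2% the TCF/LEF core. A match in letters is a description only, and the counts do not separate the 2 starts.

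The libraries held 15838403 to 17885429 counts each. Levels are given as CPM, counts relative to library size after TMM scaling, which corrects for differences in composition, and a gene was called where its adjusted p in the edgeR quasi-likelihood test was below 0.05. In CM-Vector replicate 1 the log2 levels correlated at 0.93 with the other CM-Vector libraries, which correlated at 0.99 with each other, and values that changed most without this library are given both ways. The genes fell into 5 equal bins of GC content, and in the GC-poorest bin the median log2 deviation from the mean of all libraries was 0.03, -0.35 and 0.24 in CM-MLKL replicates 1, 2 and 3, against 0.42, -0.11 and -0.19 in CM-Vector replicates 1, 2 and 3. Of 14 macrophage markers, 11 had at least 1 count and PTPRC, MRC1 and C1QA had 0 counts in every library, and the summed level of the list was 4.14 to 5.46 CPM in CM-MLKL against 5.92 to 8.67 CPM in CM-Vector. The pair of them with enough counts to be tested, CD14 and ITGAM, did not overlap between groups, as was true of 11.9% of all genes tested. CD14 was at 2.43 ± 0.52 CPM in CM-MLKL and 4.47 ± 0.83 CPM in CM-Vector, and ITGAM at 0.772 ± 0.181 CPM in CM-MLKL and 1.998 ± 1.46 CPM in CM-Vector (SD, n = 3 each), with edgeR adjusted p of 0.727 and 0.704. Markers with too few counts to be tested went both ways. Counts summed over CM-MLKL, against CM-Vector, were higher for CD68 (17 against 4), CSF1R (20 against 13) and FCER1G (17 against 9). They were also higher for AIF1 (11 against 6), C1QB (3 against 0) and CD163 (2 against 1). They were lower for SPI1 (5 against 6), TYROBP (0 against 3) and LYZ (0 against 2). The part of macrophage RNA in the results was not tested. The keratin and EPCAM genes that mark ductal carcinoma cells were present throughout, and their summed level was 2853 to 3947 CPM in CM-MLKL against 4698 to 5525 CPM in CM-Vector. Of these 5 markers 3 were lower at an unadjusted p below 0.05 in edgeR and none was called. In bulk RNA, fewer cells of one kind and less RNA per cell cannot be told apart.

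Of the 9 genes, 5 had enough counts to be tested (CDH2, CDH3, CTNNA1, CTNNB1 and CTNND1), and the other 4 fell under the filter on low counts. None of the 5 was called, and CDH2 was the only one at an unadjusted p below 0.05. Over all 14046 genes tested 0.513% were called, with 0.406% higher and 0.107% lower in CM-MLKL. Every CM-MLKL library lay above every CM-Vector library for CDH2 and CTNNA1 and below every one for CDH3, while CTNNB1 and CTNND1 overlapped. Such separation was met by 11.9% of the genes tested, 6.43% in the higher and 5.5% in the lower direction, and 3 of 5 is too few for a share. The median log2 fold change was 0.42 over the 5 genes and -0.04 over all genes tested.

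**Figure D1:**
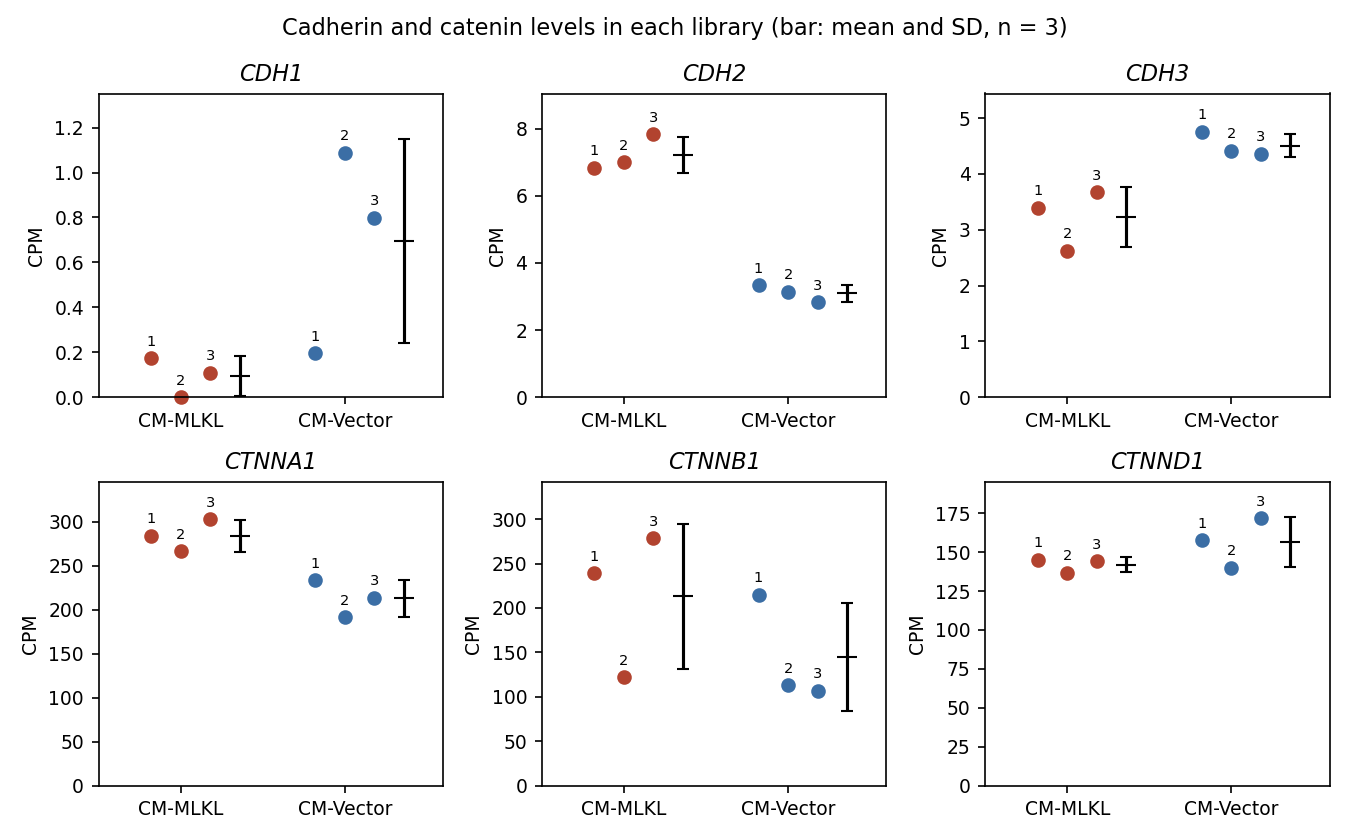
Level in CPM (linear axis from 0) of 6 genes in each library, with CM-MLKL left of CM-Vector; points carry the replicate number, and the black bar gives mean and SD of 3 libraries. The groups are apart for CDH1, CDH2, CDH3 and CTNNA1, whereas CTNNB1 is high in CM-MLKL replicates 1 and 3 and in CM-Vector replicate 1.

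CDH2, N-cadherin, lies at chr18:27950966-28177446 on the minus strand (GRCh38, GENCODE 29). It had 119, 104 and 143 counts in CM-MLKL replicates 1, 2 and 3, against 68, 52 and 46 counts in CM-Vector replicates 1, 2 and 3. As levels these were 6.84, 7.01 and 7.83 CPM in CM-MLKL, against 3.33, 3.14 and 2.83 CPM in CM-Vector. The lowest CM-MLKL library was thus above the highest CM-Vector library, and the spread within each group was small: 7.23 ± 0.53 CPM in CM-MLKL and 3.1 ± 0.25 CPM in CM-Vector (SD, n = 3 each). The log2 fold change of CM-MLKL over CM-Vector was 1.22 (SE 0.32, 95% interval 0.51 to 1.93), a fitted 2.33-fold difference with an interval of 1.42 to 3.798. In edgeR its adjusted p was 0.222, so CDH2 was not called. Without CM-Vector replicate 1 the log2 fold change was 1.3 with an edgeR adjusted p of 0.0376. With DESeq2, the test named in the study's methods, CDH2 had 1.23 with an adjusted p of 0.0319. Over its 14 alternative settings the log2 fold change stayed between 1.16 and 1.3 and the adjusted p in edgeR, limma-voom or DESeq2 ran from 0.0319 to 0.769. The size was therefore stable while the call was not, and at these counts the gene was measured from 46 to 143 reads a library. The annotation has 136 bases of CDH2 exon shared with an antisense gene, AC110015.1, whose own row held at most 6 counts in a library.

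CDH3, P-cadherin, lies at chr16:68636189-68722616 on the plus strand. It had 59, 39 and 67 counts in CM-MLKL replicates 1, 2 and 3, against 97, 73 and 71 counts in CM-Vector replicates 1, 2 and 3. The levels were 3.39, 2.63 and 3.67 CPM in CM-MLKL, against 4.75, 4.41 and 4.37 CPM in CM-Vector. The groups did not overlap, but the difference was small beside its error: the log2 fold change was -0.48 (SE 0.34, 95% interval -1.24 to 0.28), and the edgeR adjusted p was 0.999. The interval allows for a level between 0.425 and 1.21 times that of CM-Vector. No alternative setting called CDH3 or turned its direction.

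**Figure D2:**
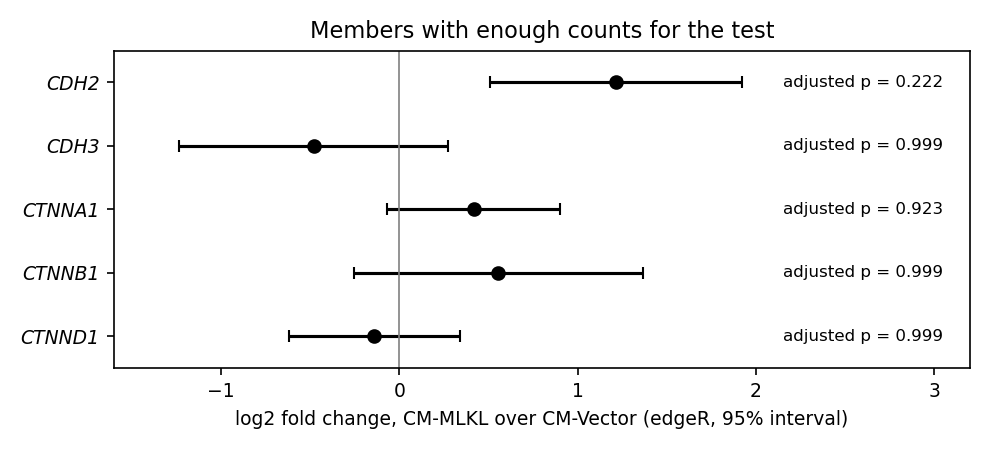
Log2 fold change of CM-MLKL over CM-Vector for the 5 genes tested, with 95% intervals from the edgeR fit (n = 3 libraries each) and adjusted p-values over all genes. The interval of CDH2 (0.51 to 1.93) lies above 0 and the intervals of CDH3, CTNNA1, CTNNB1 and CTNND1 include 0.

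Set side by side within a library, the order of CDH2 and CDH3 differed between the groups. This pair was chosen after its values had been seen, and its shares are given without a test. CDH2 made up 66.9% (95% Wilson interval 59.6 to 73.3), 72.7% (64.9 to 79.4) and 68.1% (61.5 to 74.0) of the CDH2 and CDH3 counts in CM-MLKL replicates 1, 2 and 3. In CM-Vector replicates 1, 2 and 3 it made up 41.2% (34.0 to 48.8), 41.6% (33.3 to 50.4) and 39.3% (30.9 to 48.4). All CM-MLKL shares lay above 50% and all CM-Vector shares below it, although the upper bound in CM-Vector replicate 2 reached past 50%. A ratio of 2 genes within a library does not depend on library size, and the intervals cover counting error only. Per kb of exon, the log2 ratio of CDH2 to CDH3 was 1.35, 1.75 and 1.43 in CM-MLKL replicates 1, 2 and 3, against -0.18, -0.16 and -0.29 in CM-Vector replicates 1, 2 and 3.

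CDH1, E-cadherin, lies beside CDH3 at chr16:68737225-68835548 on the plus strand. It had 3, 0 and 2 counts in CM-MLKL replicates 1, 2 and 3, against 4, 18 and 13 counts in CM-Vector replicates 1, 2 and 3. The sums were 5 counts in CM-MLKL and 35 counts in CM-Vector. The CM-MLKL libraries and CM-Vector replicate 1 were all near the limit that a count of 0 allows. That limit is 3 counts, or 0.168 to 0.189 CPM by library on raw totals, before TMM scaling. CM-Vector replicates 2 and 3 were above it at 18 and 13 counts, or 1.09 and 0.799 CPM after TMM scaling. The exact two-sided permutation test of the CPM values gave p = 0.10, the smallest that 3 against 3 libraries can give. Fitted without the filter, the edgeR log2 fold change was -2.72 (SE 0.94) with an adjusted p of 0.215. Without CM-Vector replicate 1 it was -3.14 with an adjusted p of 0.0665 in edgeR, and in no setting that could test CDH1 was it called. That fit left out the CM-Vector library closest to CM-MLKL. In fits with a library left out, CDH1 passed the filter only through CM-Vector replicates 2 and 3, where it was highest. Their values are therefore no support for a difference. In its annotation, 347 of the exon bases are shared with an antisense gene.

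The other 3 cadherins were hardly detected. CDH4, R-cadherin, had 3, 4 and 11 counts in CM-MLKL against 11, 5 and 1 counts in CM-Vector. CDH6, K-cadherin, which is best known from developing kidney, had 4, 1 and 0 counts in CM-MLKL against 2, 0 and 4 counts in CM-Vector. CDH11, the osteoblast cadherin, had 0 counts in all CM-MLKL libraries and 2, 0 and 0 counts in CM-Vector. The exact permutation test gave p = 0.80 for CDH4, p = 0.80 for CDH6 and p = 1.0 for CDH11, and at this depth a difference in them was not detectable.

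Together, the 6 cadherins summed to 1.995, 1.88 and 2.27 CPM per kb of exon in CM-MLKL replicates 1, 2 and 3, against 1.56, 1.56 and 1.43 CPM per kb in CM-Vector replicates 1, 2 and 3. CDH2 took 69.2%, 75.3% and 69.7% of that sum in CM-MLKL, against 43.3%, 40.7% and 39.98% in CM-Vector. CDH3 took 27.3%, 22.4% and 25.9% in CM-MLKL, against 49.0%, 45.4% and 49.0% in CM-Vector. The share of CDH1 was 1.40%, 0% and 0.781% in CM-MLKL, against 2.04%, 11.3% and 9.06% in CM-Vector. The CDH2 and CDH3 shares in CM-MLKL lay apart from those in CM-Vector in every library, and the CDH1 shares were kept apart only narrowly, by CM-Vector replicate 1. Shares of one sum move against each other by construction.

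**Figure D3:**
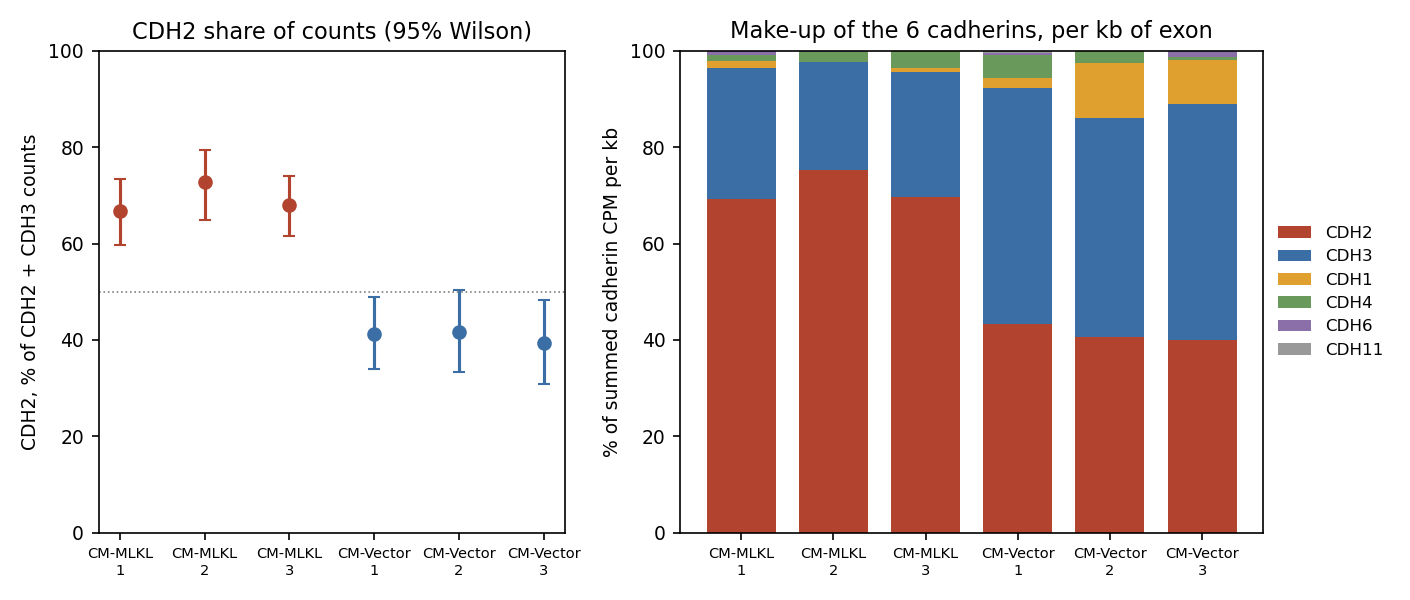
Left, CDH2 as a percentage of CDH2 and CDH3 counts in each library with 95% Wilson intervals (counting error only; dotted line at 50%). Right, percentage of the summed cadherin level (CPM per kb of exon) taken by each of the 6 cadherins, with CM-MLKL libraries left of CM-Vector libraries. CDH2 takes 69.2 to 75.3% of the sum in CM-MLKL and 39.98 to 43.3% in CM-Vector.

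Among 17 other cadherins (desmosomal and protocadherin genes were not listed), 3 were tested and none was called. CDH22, a cadherin described in brain, had 0.747, 1.08 and 0.767 CPM in CM-MLKL against 0.343, 0.302 and 0.246 CPM in CM-Vector. Its log2 fold change was 1.504 with an edgeR adjusted p of 0.452. CDH22 passed the filter only through CM-MLKL, with 13, 16 and 14 counts there against 7, 5 and 4 counts in CM-Vector. Its fold change is therefore no support for a difference. CDH15, muscle cadherin, had a log2 fold change of -0.41 and an edgeR adjusted p of 0.999, and without CM-Vector replicate 1 it was -0.76 with 0.250. CDH24 was at 0.02 with an adjusted p of 0.999 in edgeR, and its sign changed with single libraries. CDH19, a cadherin of Schwann cell precursors, fell under the filter and was picked out after its values were seen. It had 14, 7 and 23 counts in CM-MLKL replicates 1, 2 and 3, against 3, 0 and 0 counts in CM-Vector replicates 1, 2 and 3. Its groups did not overlap, and without the filter its edgeR log2 fold change was 3.81 (SE 0.96) with an adjusted p of 0.0111. It could also be tested in 4 of the fits that left out 1 library. There the edgeR adjusted p was 0.0352 without CM-Vector replicate 1, which was the only CM-Vector library with counts. It was 0.341 to 0.406 without CM-Vector replicate 2, CM-Vector replicate 3 or CM-MLKL replicate 2. In these fits CDH19 passed the filter only through CM-MLKL replicates 1 and 3, where it was highest. The p-values are therefore no support for a difference. CDH5, the endothelial cadherin, had 0 counts in every library.

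CTNNB1, β-catenin, lies at chr3:41194741-41260096 on the plus strand. Its levels were 239, 122 and 278 CPM in CM-MLKL replicates 1, 2 and 3, against 215, 113 and 107 CPM in CM-Vector replicates 1, 2 and 3. CM-MLKL replicates 1 and 3 and CM-Vector replicate 1 were high, the other libraries were low, and the groups overlapped. The log2 fold change was 0.56 (SE 0.37, 95% interval -0.25 to 1.37) with an edgeR adjusted p of 0.999. Without CM-Vector replicate 1 it was 0.98 with an adjusted p of 0.170. Without CM-MLKL replicate 3 it was 0.32 and without CM-MLKL replicate 2 it was 0.84. In the GC bin that holds CTNNB1 and CDH2 (41.4 to 46.5% GC), the median gene deviated by 0.10, -0.32 and 0.18 in CM-MLKL replicates 1, 2 and 3, against 0.22, -0.05 and -0.10 in CM-Vector replicates 1, 2 and 3. The libraries high in CTNNB1 were those with positive deviations of this bin. CDH2, in the same bin, was at 7.01 CPM in CM-MLKL replicate 2 and 3.33 CPM in CM-Vector replicate 1. A link of CTNNB1 to GC content was not tested. With offsets for GC content and length, an alternative chosen after seeing the data, the log2 fold change of CTNNB1 was 0.60 with an adjusted p of 0.327.

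CTNNA1, α-catenin, lies at chr5:138610967-138935034 on the plus strand. Its levels were 284, 266 and 302 CPM in CM-MLKL replicates 1, 2 and 3, against 233, 191 and 214 CPM in CM-Vector replicates 1, 2 and 3. All CM-MLKL libraries were above all CM-Vector libraries, with means of 284 ± 18 CPM and 213 ± 21 CPM (SD, n = 3 each). The log2 fold change was 0.42 (SE 0.22, 95% interval -0.07 to 0.90) with an edgeR adjusted p of 0.923, and it ran from 0.36 to 0.52 over 14 alternative settings, none of which called it.

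CTNND1, p120-catenin, lies at chr11:57753243-57819546 on the plus strand. Its levels were 145, 137 and 144 CPM in CM-MLKL replicates 1, 2 and 3, against 158, 140 and 172 CPM in CM-Vector replicates 1, 2 and 3. The groups overlapped and the log2 fold change was -0.14 (SE 0.22, 95% interval -0.62 to 0.34) with an edgeR adjusted p of 0.999. The interval allows for a level between 0.650 and 1.27 times that of CM-Vector. The annotation has 610 exon bases of CTNND1 shared with readthrough or neighbouring transcripts on its own strand.

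The fitted log2 fold changes of CTNND1 (-0.14) and CTNNA1 (0.42) had opposite signs, but both 95% intervals included 0. The ratio of CTNND1 to CTNNA1 was more even within groups than that of CTNNB1 to CTNNA1. Per kb of exon, the log2 ratio of CTNND1 to CTNNA1 was -0.96, -0.96 and -1.06 in CM-MLKL replicates 1, 2 and 3, against -0.56, -0.45 and -0.31 in CM-Vector replicates 1, 2 and 3. The means were -0.99 ± 0.06 in CM-MLKL and -0.44 ± 0.12 in CM-Vector (SD, n = 3 each), so that the groups were apart by more than their spread. The log2 ratio of CTNNB1 to CTNNA1 was -0.68, -1.56 and -0.55 in CM-MLKL replicates 1, 2 and 3, against -0.55, -1.19 and -1.43 in CM-Vector replicates 1, 2 and 3. It overlapped fully between the groups. These ratios were described without a test.

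**Figure D4:**
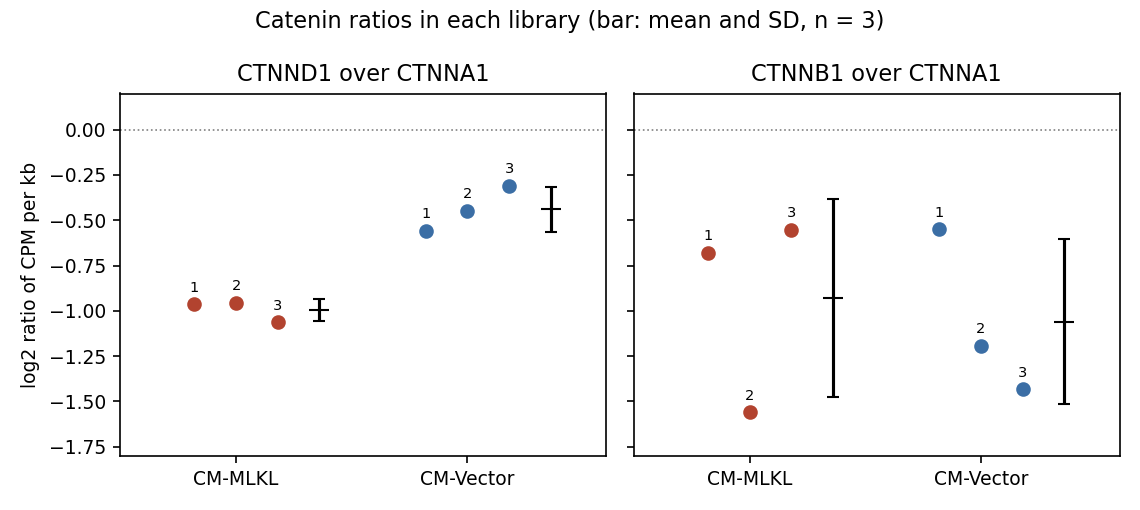
Log2 ratio of catenin levels (CPM per kb of exon) in each library, for CTNND1 over CTNNA1 (left) and CTNNB1 over CTNNA1 (right), with CM-MLKL left of CM-Vector in each panel; points carry the replicate number and bars give mean and SD of 3 libraries. The CTNND1 ratio is -1.06 to -0.96 in CM-MLKL and -0.56 to -0.31 in CM-Vector, and the CTNNB1 ratio overlaps.

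Ordered by level per kb of exon within CM-MLKL, CTNNA1 was first at 32.2 ± 2.1 CPM per kb, followed by CTNNB1 at 17.9 ± 6.8 and CTNND1 at 16.1 ± 0.5 CPM per kb, which overlapped. CDH2 followed at 1.46 ± 0.11 and CDH3 at 0.518 ± 0.086 CPM per kb, and CDH4, CDH1 and CDH6 overlapped at or under 0.0474 CPM per kb (SD, n = 3 each). In CM-Vector CTNNA1 was at 24.1 ± 2.4, CTNND1 at 17.8 ± 1.8 and CTNNB1 at 12.2 ± 5.1 CPM per kb, and the last pair overlapped. CDH3 was next at 0.723 ± 0.034, above CDH2 at 0.627 ± 0.051 CPM per kb without overlap, and CDH1 followed at 0.112 ± 0.074 CPM per kb (SD, n = 3 each). Catenin transcripts were thus far more abundant than those of the 6 cadherins, whose sum was 2.904 to 3.36% of the catenin sum in CM-MLKL and 2.49 to 3.31% in CM-Vector. The order of the catenins depended on the length used: per kb of the longest coding transcript the mean of CTNNB1 lay above that of CTNND1 in both groups, at 45.0 against 21.7 CPM per kb in CM-MLKL without overlap, and at 30.6 against 23.9 CPM per kb in CM-Vector with overlap. With that length the cadherin sum was 1.605 to 1.90% of the catenin sum in CM-MLKL and 1.44 to 1.99% in CM-Vector.

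Of 8 other catenin-family genes 5 were tested and none was called. JUP, plakoglobin, which can take the place of β-catenin on cadherins, was at 285, 486 and 204 CPM in CM-MLKL against 240, 221 and 254 CPM in CM-Vector, and its log2 fold change of 0.45 had an edgeR adjusted p of 0.999. That value rests on CM-MLKL replicate 2, and without it the log2 fold change was 0.04, while without CM-MLKL replicate 3 it was 0.70. CTNNAL1, α-catulin, had -0.59 with an adjusted p of 0.896, CTNNBIP1, an inhibitor of β-catenin binding to TCF proteins, 0.60 with 0.929, and PKP4, a p120 relative, -0.28 with 0.999 by edgeR. Without CM-Vector replicate 1 the log2 fold changes were 0.33 for CTNNBIP1 and -0.08 for PKP4, and without CM-MLKL replicate 2 that of CTNNAL1 was -0.36. CTNND2, the neural δ-catenin, had 0 counts in every library.

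All 29 listed junction partners (actin linkers, nectins, phosphatases and kinases of the complex) were tested, and none was called. ACTN1, the actin cross-linker α-actinin 1, was at 569, 713 and 483 CPM in CM-MLKL replicates 1, 2 and 3, against 281, 248 and 299 CPM in CM-Vector replicates 1, 2 and 3. Its groups were far apart, with a log2 fold change of 1.09 (SE 0.24), but its edgeR adjusted p was 0.120. It passed in 4 of its 14 alternative settings. NECTIN1, a nectin that joins cells beside cadherins, had a log2 fold change of 1.03 with an adjusted p of 0.344 (0.70 without CM-MLKL replicate 2), and PLEKHA7, which ties p120-catenin to microtubules, 0.64 with 0.773 in edgeR. PTPRK, a receptor phosphatase with β-catenin among its reported substrates, had 0.82 with an adjusted p of 0.661. Without CM-Vector replicate 1, where PTPRK was at 72.2 CPM against 30.4 and 34.4 CPM in the other CM-Vector libraries, it was 1.35 with an adjusted p of 0.0120 in edgeR. The median log2 fold change of the junction partners was 0.04, beside -0.04 over all genes.

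Of 16 listed regulators of CDH1 transcription 8 were tested and none was called. SNAI1, which encodes the repressor SNAIL, was at 55.1, 89.6 and 48.6 CPM in CM-MLKL replicates 1, 2 and 3, against 6.27, 43.5 and 43.1 CPM in CM-Vector replicates 1, 2 and 3. Its log2 fold change of 1.06 had an edgeR adjusted p of 0.933, and without CM-Vector replicate 1, its lowest library, it was 0.60 with an adjusted p of 0.369. TWIST2 had a log2 fold change of 0.85 with an adjusted p of 0.525, ZEB1 0.36 with 0.999 and ZEB2 -1.25 with 0.999 in edgeR. ZEB1 rests on single libraries, with 0.92 and an edgeR adjusted p of 0.195 without CM-Vector replicate 1, and 0.02 without CM-MLKL replicate 3. The ZEB2 value rests on CM-Vector replicate 1 at 5.73 CPM, and without it the log2 fold change was 0.50. TWIST1 and the epithelial activator GRHL2 had 0 counts in every library.

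The proteases that cut cadherins or process their precursors held the called genes of the related lists, 2 of 13 tested. Of all genes tested 0.406% were called higher, and 2 of 13 is too few for a share. The list was chosen with earlier results of these data known. MMP14, a membrane-bound metalloproteinase, was at 199, 310 and 213 CPM in CM-MLKL replicates 1, 2 and 3, against 27.4, 49.99 and 54.4 CPM in CM-Vector replicates 1, 2 and 3. It rose by 2.45 on the log2 scale (SE 0.32) with an edgeR adjusted p of 0.00811. MMP9, gelatinase B, was at 15.4, 23.6 and 12.3 CPM in CM-MLKL replicates 1, 2 and 3, against 2.79, 2.30 and 1.23 CPM in CM-Vector replicates 1, 2 and 3. It rose by 3.01 (SE 0.41) with an edgeR adjusted p of 0.00879, and 430 of its exon bases are shared with the antisense gene SLC12A5-AS1. Without CM-MLKL replicate 2, the highest library for both, neither was called, with adjusted p of 0.0889 for MMP14 and 0.0994 for MMP9 in edgeR. FURIN, which cleaves the cadherin propeptide, had 0.94 with an adjusted p of 0.450, and NCSTN, a subunit of γ-secretase, 0.44 with 0.938 in edgeR. Without CM-MLKL replicate 2 these were 0.54 for FURIN and 0.26 for NCSTN. The sheddase ADAM10 was at 0.06 with an adjusted p of 0.999 in edgeR.

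The list of β-catenin degradation and transcription partners had 16 of 16 tested and none called. Its 3 genes of smallest p were all higher in every CM-MLKL library, as were 6.43% of all genes tested. They were picked by p, so this separation adds no support of its own. AXIN2, a scaffold of the degradation complex and a common target of β-catenin and TCF, was at 2.53, 2.36 and 3.01 CPM in CM-MLKL replicates 1, 2 and 3, against 0.637, 0.604 and 0.615 CPM in CM-Vector replicates 1, 2 and 3. These values were even within each group, with a log2 fold change of 2.08 (SE 0.42) and an edgeR adjusted p of 0.0767. AXIN2 had 13, 10 and 10 counts in CM-Vector replicates 1, 2 and 3, near the filter's minimum count of 10. Its passing of the filter thus depended on CM-MLKL. The fold change of AXIN2, and its calls in the settings below, are therefore no support for a difference. TCF7 was at 30, 46.8 and 29.2 CPM in CM-MLKL against 15.6, 12.5 and 11.3 CPM in CM-Vector, with a log2 fold change of 1.43 (SE 0.29) and an adjusted p of 0.0824 in edgeR. LEF1 was at 2.76, 4.38 and 2.30 CPM in CM-MLKL against 1.03, 1.15 and 0.984 CPM in CM-Vector, with 1.57 (SE 0.43) and an adjusted p of 0.249 in edgeR. AXIN2 and TCF7 were each called in 5 alternative settings and LEF1 in none. APC2, the fourth by p, had -0.46 with an adjusted p of 0.999 (-0.14 without CM-Vector replicate 1), and the median of the list was 0.02 beside -0.04 over all genes. Part of the AXIN2 exons, 1316 bases, is shared with another gene on its strand.

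**Figure D5:**
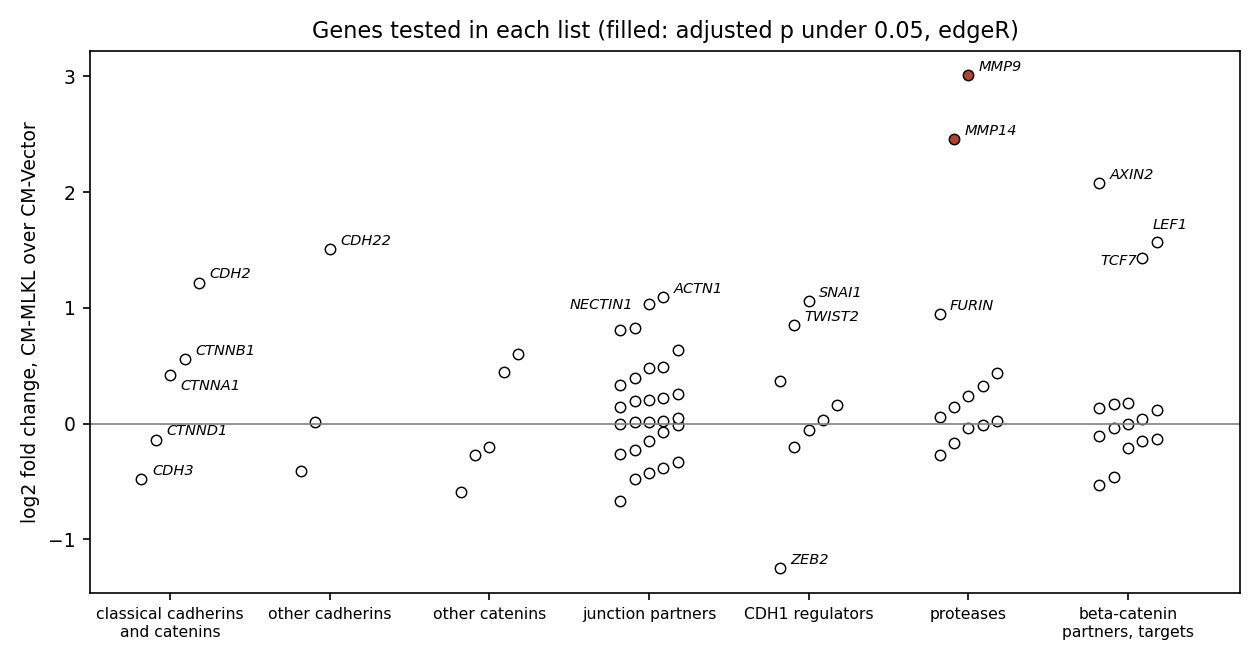
Log2 fold change of CM-MLKL over CM-Vector for every gene tested in the 9-gene set and in 6 related lists; 1 point is 1 gene, filled where the edgeR adjusted p is below 0.05, and sideways shifts only separate points. MMP9 (3.01) and MMP14 (2.45) are filled, while AXIN2, LEF1, TCF7, CDH22 and CDH2 lie at 1.22 to 2.08 unfilled.

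Over the 6 libraries, the genes whose centred log2 levels were closest to those of CDH2 were FKBP1A (root mean square distance 0.10), OCIAD2 (0.12) and SLC49A3 (0.13). FKBP1A, a peptidyl-prolyl isomerase that binds tacrolimus, was at 1135, 1087 and 1217 CPM in CM-MLKL replicates 1, 2 and 3, against 612, 611 and 588 CPM in CM-Vector replicates 1, 2 and 3. OCIAD2 was at 302, 260 and 336 CPM in CM-MLKL, against 150, 155 and 151 CPM in CM-Vector. SLC49A3 was at 1.90, 2.36 and 2.52 CPM in CM-MLKL, against 1.18, 0.846 and 0.676 CPM in CM-Vector. Like CDH2, none of the 3 was called, and the likeness is a description over 6 libraries that share the same 2 groups.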

How the data were processed

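Per the study's methods, the authors enriched mRNA on oligo(dT) beads, used a NEBNext Ultra kit, whose reads carry no strand mark, sequenced the libraries on an Illumina instrument, filtered reads with fastp and assembled them with StringTie. For differential expression the methods name DESeq2 with an adjusted p below 0.05. Here DESeq2 is an alternative and edgeR the main test. Which aligner, which genome build and which counter (and its strand option) were used is not given in the sources used here. As deposited by the authors, the table holds raw read counts per gene, without normalisation. Reads from a gene and its antisense partner cannot be told apart. Of 58735 gene names, 58708 matched GENCODE 29 by name; the other 27 look like dates, hold 0.155% of counts and were kept in totals. The labels number 3 libraries per group and the methods describe independent experiments; nothing in the labels names separate cultures, so p-values measure only the spread between these libraries.

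Counts were filtered with filterByExpr of edgeR 4.0.16 (minimum count 10, minimum total 15) in R 4.3.3, scaled by TMM and tested with the edgeR quasi-likelihood test, group as the only term, two-sided, with Benjamini-Hochberg adjustment over all 14046 genes. Members under the filter were compared by exact permutation of CPM in scipy 1.17.1. Levels per kb use the union of exons. Wilson intervals and the limit of 3 counts cover counting error only. Alternatives were DESeq2 size factors, library size only, DESeq2 1.42.0, limma-voom (limma 3.58.1), no filter, at least 5 CPM in 3 libraries, a replicate block, each library left out, the longest coding transcript as length and, added after seeing the data, GC and length offsets. The fits were tested on simulated data, in which only genes well above the filter were changed and no GC trend was put in. That simulation did not cover genes with few counts. The 9 genes, the lists and the tests were chosen with earlier results of these data known. Named genes were all 9 members, from each related list every called gene and up to 4 with the smallest p, and the 3 genes closest to the tested member of smallest p over log2 levels (pseudocount 0.5 CPM); ADAM10, CDH5, CDH19, CTNND2, TWIST1 and GRHL2 were added after their values were seen. Promoter sequences are from RefSeq.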

Additional observations from a re-analysis of the deposited data

How the results depend on the processing

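The counts of all genes called moved most: 140 higher and 67 lower by DESeq2, 149 and 100 without the filter, and 139 and 41 with GC and length offsets, against 57 and 15. Leaving out 1 library gave 14 to 206 higher and 4 to 108 lower, the most without CM-Vector replicate 1 and the fewest higher without CM-MLKL replicate 2. Members called higher were 1 (CDH2) by DESeq2 and 0 to 1 when 1 library was left out, 1 only without CM-Vector replicate 1, and none was called lower in any setting. Members under the filter numbered 0 without it and 2 to 3 when 1 library was left out, against 4. Genes of the related lists called higher, 2 in the main fit, were 5 by DESeq2, 6 without the filter, 7 with the offsets and 0 to 7 when 1 library was left out. Same-numbered replicates did not pair (correlations of deviations 0.19, 0.18 and -0.34 for numbers 1, 2 and 3); with the replicate number as a block 112 genes were higher and 43 lower, 4 of them in the related lists, and CDH2 had an adjusted p of 0.307. Using the longest coding transcript, the CDH2 share in CM-Vector was 38.9%, CDH2 minus CDH3 in CM-Vector was -0.20 CPM per kb, and the log2 ratio of CTNND1 to CTNNA1 was -1.77 in CM-MLKL and -1.22 in CM-Vector. The log2 fold change of CDH24, 0.02 in the main fit, was -0.0041 under the filter of 5 CPM and -0.41 to 0.41 when 1 library was left out (-0.41 without CM-Vector replicate 1 and -0.26 without CM-MLKL replicate 2), and that of ZEB2 was -1.71 to 0.50 (0.50 without CM-Vector replicate 1). The cause of these shifts was not tested. There were 470 comparisons of a named gene or list median with an alternative. A gene counted as the same where it kept its direction and side of the threshold. A list median did so where it moved by less than the spread, even if its sign changed. By these rules 436 were the same, 19 newly passed the threshold, 2 lost it, 4 turned round and 9 list medians moved by more than the spread. With at most 18 counts in any library, depth limits what can be said of CDH1, CDH4, CDH6 and CDH11.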
